A study of Mus musculus with 25 samples.

Results

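The genes described here encode the interleukin-1 (IL-1) family cytokines, inhibitors and receptors named Il1a, Il1b, Il18, Il1rn, Il18bp, Il1r1, Il1r2, Il1rap and Il1rl1. They are 9 of the 24411 gene symbols counted by RNA-seq in mouse macrophages, and they were taken by gene name, with all 9 present in the count files.

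IL-1α and IL-1β, the products of Il1a and Il1b, are inflammatory cytokines that signal through the IL-1 receptor Il1r1 and its accessory chain Il1rap to the adaptor Myd88, IRAK kinases and NF-κB. The antagonist Il1rn occupies the same receptor without signalling, the decoy receptor Il1r2 binds IL-1 without signalling, and Il18bp captures IL-18 in the same manner. IL-1β and IL-18 are made as precursors that inflammasomes and caspase-1 process, so their mRNA does not show how much active cytokine was released, and Il1rl1 is the receptor of IL-33.

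Bone marrow-derived macrophages (BMDMs) were grown from C57BL/6 mice for 4 days in macrophage colony-stimulating factor (M-CSF, 25 ng/ml). The control BMDMs were cultured for 4 h without an added stimulus, and BMDMs given LPS at 100 ng/ml together with IFN-γ at 100 U/ml were collected at labelled times of 1, 4, 12 and 24 h. The study's text calls these cells IFN-γ-primed, but how long IFN-γ was present before LPS is not given in the sources used here, so the times below are those of the labels and the exposure to IFN-γ may have been longer. No BMDMs given IFN-γ alone were analysed here, and the parts of IFN-γ and of LPS in a change from control cannot be told apart. Other BMDMs received IL-4 or IL-13 (10 ng/ml each) for 12 h. Each of these BMDM groups had 3 libraries, and all BMDM comparisons share the same 3 controls, so the 12 and 24 h groups have no control of their own culture time. RAW264.7 cells, a macrophage line from BALB/c mice transformed by Abelson murine leukemia virus, were cultured for 4 h without a stimulus or with LPS alone (100 ng/ml), with 2 libraries each. The cell source, the mouse strain and the lack of IFN-γ therefore go together when RAW264.7 cells are set beside BMDMs.

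Reads on the sense strand came to 2378639 to 3357300 per library, of which the ribosomal RNA gene Rn45s took 20.1 to 39.8% and was left out. Levels are given as CPM, read counts scaled to the size of the library, with TMM normalisation, which adjusts library sizes so that most genes do not differ between libraries. Of the 8 macrophage markers, 8 were detected in each BMDM group, with a summed level of 18939 to 32893 CPM, and 7 in RAW264.7 cells, where Mertk was at 0 and the sum was 8532 to 10265 CPM. Egr1 and Cd74, chosen after their values were seen, are given as a description only, and the length of exposure to IFN-γ was not tested. Egr1, an immediate early gene, was at 291 ± 4.43 CPM in the 1 h libraries, 5.39 ± 1.47 CPM in BMDM controls and at most 2.93 CPM in any later library of the time course (SD, n = 3). Cd74, the MHC class II invariant chain and a gene that responds late to IFN-γ, was at 3710 ± 317 CPM at 1 h, against 46.3 ± 1.20 CPM in controls and 5263 ± 259 CPM at 4 h. T and B cell markers summed to at most 0.643 CPM in any library. In bulk RNA, fewer cells of a type and less RNA per cell cannot be told apart. A gene was called when the edgeR quasi-likelihood test gave a Benjamini-Hochberg adjusted p of at most 0.01 and the log2 fold change reached the size cutoff that the study used for that kind of comparison. On the log2 scale it was 2 for RAW264.7 cells, 1.5 with IFN-γ and LPS, and 0.7 where IL-4 or IL-13 was set against the control. The exception was the difference between the changes in RAW264.7 cells and BMDMs, where a cutoff of 1 was chosen here.

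In the genome (mm10, GENCODE M21), Il1a lies on the minus strand at chr2:129299610-129309972, Il1b on the minus strand at chr2:129364570-129371139 and Il1rn on the plus strand at chr2:24336853-24351494. Il18bp is on the minus strand at chr7:102014885-102018690 and Il18 on the plus strand at chr9:50554827-50581840. The receptor genes Il1r2, Il1r1 and Il1rl1 follow each other on the plus strand, at chr1:40074079-40125231, chr1:40225080-40317257 and chr1:40429570-40465415, and Il1rap is on the plus strand at chr16:26581704-26730117.

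Promoters of the members whose mRNA was called higher already at 1 h with IFN-γ and LPS are shown because those members carry the results below. Each sequence runs from 250 bases before to 50 bases after a RefSeq start site (GRCm38.p6), 5′ to 3′ along the gene, and capitals mark every match, on either strand, to 7 short motifs. The Il1a window is chr2:129309923-129310222 (minus strand), the Il1b window chr2:129371090-129371389 (minus strand) and the Il18bp window chr7:102018183-102018482 (minus strand). Il1rn has 3 annotated starts, of which start 1 is chr2:24336610-24336909 and start 3 is chr2:24345121-24345420 (plus strand); start 2, whose window overlaps that of start 3, is not printed.
Il1a: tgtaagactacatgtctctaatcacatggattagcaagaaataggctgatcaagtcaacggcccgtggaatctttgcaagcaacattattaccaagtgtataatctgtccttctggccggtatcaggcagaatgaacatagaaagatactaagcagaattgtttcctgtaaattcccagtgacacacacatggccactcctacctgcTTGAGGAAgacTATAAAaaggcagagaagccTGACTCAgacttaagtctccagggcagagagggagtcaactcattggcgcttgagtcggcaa
Il1b: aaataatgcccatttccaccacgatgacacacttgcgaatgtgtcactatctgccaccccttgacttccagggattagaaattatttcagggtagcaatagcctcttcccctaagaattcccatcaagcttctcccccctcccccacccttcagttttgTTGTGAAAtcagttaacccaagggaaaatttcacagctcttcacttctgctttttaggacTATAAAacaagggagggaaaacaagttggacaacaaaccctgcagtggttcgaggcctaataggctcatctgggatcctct
Il1rn start 1: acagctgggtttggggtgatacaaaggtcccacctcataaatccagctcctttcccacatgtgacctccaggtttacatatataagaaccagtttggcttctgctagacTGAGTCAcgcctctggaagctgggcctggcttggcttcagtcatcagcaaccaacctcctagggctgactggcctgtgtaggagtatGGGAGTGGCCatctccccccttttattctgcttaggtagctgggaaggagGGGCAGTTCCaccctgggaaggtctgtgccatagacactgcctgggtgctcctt
Il1rn start 3: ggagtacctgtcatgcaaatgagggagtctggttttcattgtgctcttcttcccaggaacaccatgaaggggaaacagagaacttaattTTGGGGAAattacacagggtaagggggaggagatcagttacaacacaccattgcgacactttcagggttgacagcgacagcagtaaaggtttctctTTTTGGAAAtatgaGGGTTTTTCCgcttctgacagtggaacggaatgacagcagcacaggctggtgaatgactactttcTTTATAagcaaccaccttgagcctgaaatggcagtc
Il18bp: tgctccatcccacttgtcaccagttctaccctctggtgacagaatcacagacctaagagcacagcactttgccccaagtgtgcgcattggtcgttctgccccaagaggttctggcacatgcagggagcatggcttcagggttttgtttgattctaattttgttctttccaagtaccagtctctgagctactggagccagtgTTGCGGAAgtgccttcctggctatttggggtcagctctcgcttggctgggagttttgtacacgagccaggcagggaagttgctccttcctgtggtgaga

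The Il1a and Il1b windows each held the TATA motif TATAAA, starting 32 and 31 bases before the start site, which 13.6% of all 32851 promoters of this length hold. Both also held the C/EBP motif TTNNGNAA (40.7% of promoters), at -43 in Il1a and -91 in Il1b. In Il1a this match overlapped the PU.1 motif GAGGAA at -41 (28.3%), and the AP-1 motif TGANTCA lay at -12 (7.81%). Il1rn start 1 held the AP-1 motif at -141. Il1rn start 3 held the C/EBP motif at -161, -65 and -64 and the TATA motif at 15 on the opposite strand. The NF-κB motif, GGG and CC with any 5 bases between them, is a loose pattern found in 50.8% of promoters and was matched in Il1rn start 1 at -54 and -4 and in Il1rn start 3 at -51, and in neither the Il1a nor the Il1b window. Il18bp held the C/EBP motif at -49, readable on both strands. The interferon motifs ISRE (GAAA, any 2 bases, GAAA, 3.44% of promoters) and GAS (TTCNNNGAA, 8.30%) matched none of these 5 windows, and among the other members ISRE matched only Il1rap and GAS only Il1r2. Letters in these short windows are a description and leave out distant enhancers.

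Il1a and Il1b went from the edge of detection in controls to the most abundant members in the libraries labelled 1 h of IFN-γ and LPS. In control BMDMs, the 3 libraries held 2.15, 0.543 and 2.14 CPM of Il1a, from 9 reads in all, for which counting error alone gives a 95% Poisson interval of 0.738 to 3.06 CPM. Il1a stood at 1400, 1557 and 1726 CPM at 1 h, 5989, 7603 and 6822 CPM at 4 h, 3832, 3660 and 3814 CPM at 12 h, and 1775, 2558 and 2368 CPM at 24 h. Each stimulated library lay above each control, and the groups of successive times did not overlap. The Il1a changes from control were 9.83 ± 0.51 (SE) at 1 h and 11.92 ± 0.51 at 4 h on the log2 scale, with adjusted p-values of 5.43e-30 and 1.60e-33 by the edgeR quasi-likelihood test with Benjamini-Hochberg adjustment. They were 11.08 at 12 h and 10.37 at 24 h. Because the controls rest on 9 reads, the size of these folds is less certain than their direction.

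Il1b followed the same course with a longer plateau. Its controls were 1.07, 4.34 and 2.14 CPM (14 reads in all), and the stimulated libraries held 2265, 2386 and 2877 CPM at 1 h, 6706, 7799 and 7820 CPM at 4 h, 6929, 6758 and 7054 CPM at 12 h, and 3090, 4249 and 4068 CPM at 24 h. No stimulated library came near a control, while the 4 and 12 h libraries overlapped. The log2 changes from control were 9.89 ± 0.41, 11.44 ± 0.41, 11.34 and 10.52 in time order, and the adjusted p at 4 h was 7.75e-34 (edgeR). Per kb of exon sequence, Il1a and Il1b reached similar levels at 4 h, 3447 ± 409 and 3902 ± 334 CPM per kb (SD, n = 3). At 12 h they were 1909 ± 47.9 and 3625 ± 78.1 CPM per kb, respectively.

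**Figure D1:**
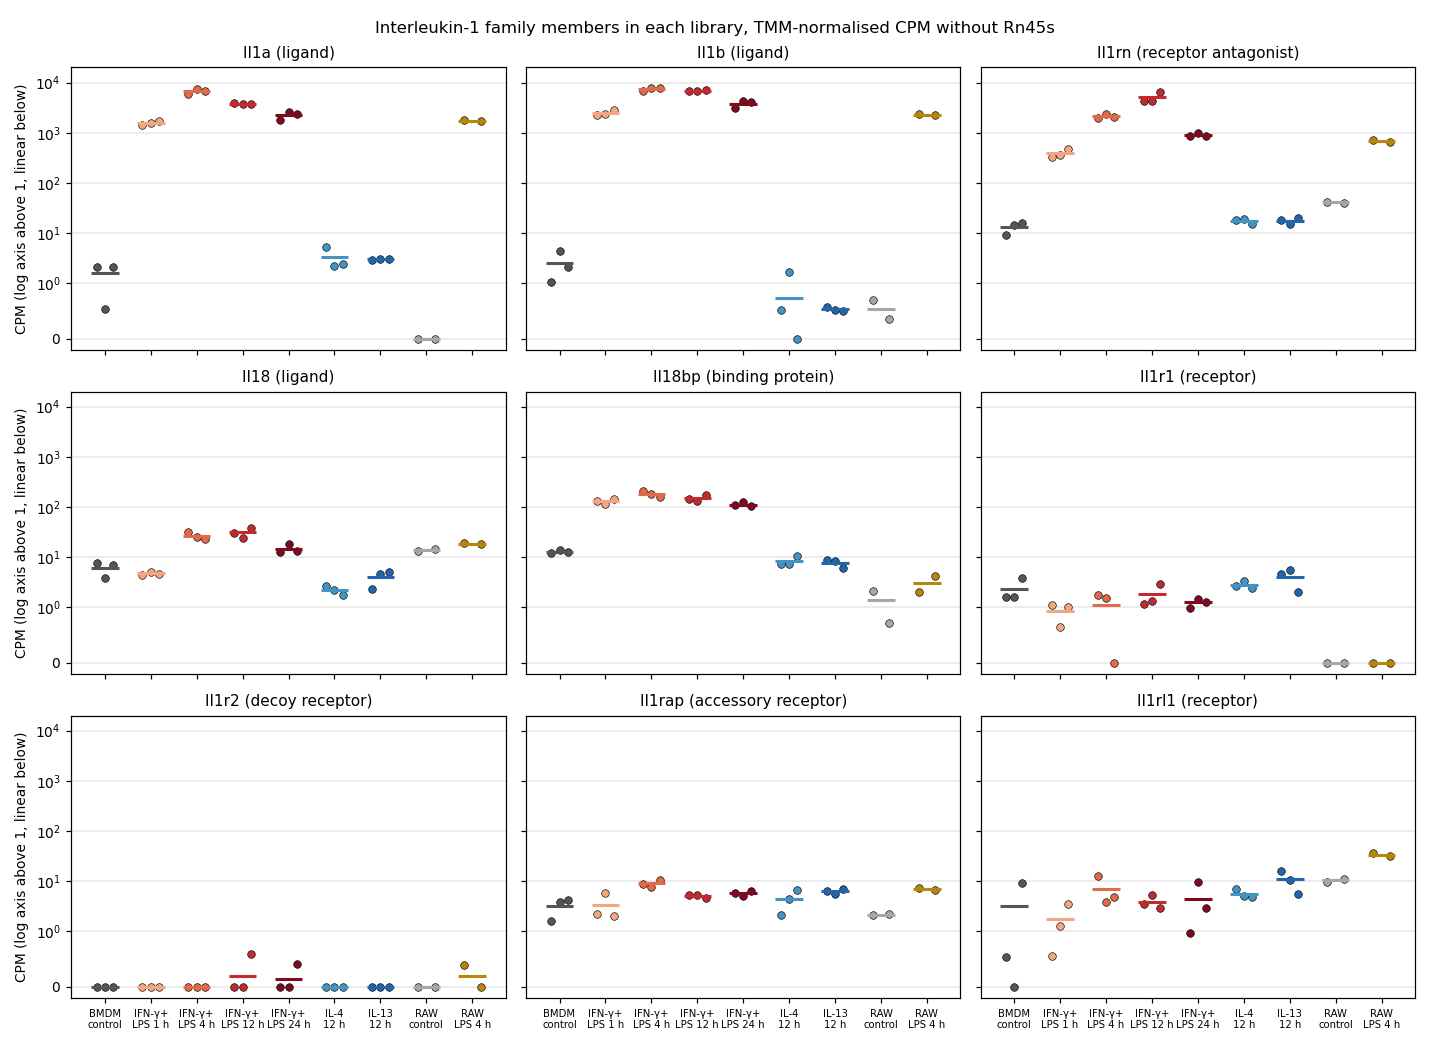
Level of each of the 9 members in every library, in TMM-normalised CPM on an axis that is logarithmic above 1 and linear below; points are libraries and bars are group means (n = 3 for BMDM groups, n = 2 for RAW264.7). Il1a, Il1b, Il1rn and Il18bp separate from the control at every time of IFN-γ and LPS, whereas the 4 receptor genes are at 35.8 CPM or less in every library.

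Il18, the IL-18 precursor gene, responded later and far less. Control BMDMs held 7.52, 3.80 and 6.95 CPM, and the 1 h libraries, at 4.47, 5.15 and 4.55 CPM, lay within that range. Levels of 31.9, 24.8 and 23.0 CPM at 4 h and 30.0, 24.0 and 38.8 CPM at 12 h were all above the controls, as were the 12.7, 17.9 and 13.5 CPM at 24 h. Il18 was called higher at 4 h (log2 fold change 2.05 ± 0.30, adjusted p = 1.79e-08 by edgeR) and at 12 h (2.29 ± 0.29, adjusted p = 1.19e-10). At 24 h its log2 difference of 1.25 ± 0.30 passed the adjusted p (0.00024) but not the size cutoff, and at 1 h it was -0.40 with an adjusted p of 0.443.

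Both inhibitors rose as well, on different schedules. The antagonist Il1rn was already detected in controls, at 9.13, 14.7 and 15.5 CPM, and held 329, 359 and 469 CPM at 1 h and 1995, 2325 and 2014 CPM at 4 h. It was highest at 12 h, with 4385, 4311 and 6551 CPM, and stood at 876, 967 and 878 CPM at 24 h. None of the successive groups overlapped. Its log2 fold changes were 4.85 ± 0.28 at 1 h (adjusted p = 1.81e-12, edgeR), 7.27 ± 0.28 at 4 h, 8.54 ± 0.28 at 12 h (adjusted p = 5.77e-17) and 6.10 at 24 h.

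Il18bp, a gene that IFN-γ is known to induce, was at most of its highest level in the earliest group. The controls held 11.8, 13.6 and 12.8 CPM, the 1 h libraries 131, 112 and 142 CPM and the 4 h libraries 205, 185 and 160 CPM. At 12 h it was 142, 133 and 171 CPM and at 24 h 109, 124 and 102 CPM. All stimulated libraries exceeded all controls, while successive times after 4 h ran close together. The log2 fold change was 3.30 ± 0.19 at 1 h (adjusted p = 2.74e-22, edgeR) and between 3.12 and 3.78 at the later times.

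The receptors were low throughout. Il1r1, which transmits the IL-1 signal, had 3, 3 and 7 reads in the controls, 0 to 5 reads in the IFN-γ and LPS libraries and 4 to 11 in the IL-4 and IL-13 libraries. Il1r2, the decoy, had a single read in each of 3 libraries (12 h replicate 3, 24 h replicate 3 and RAW264.7 LPS replicate 1) and 0 elsewhere. Neither gene passed the filter on low counts in any comparison, so they are not among the 7 members tested in the time course. The 3 reads that a count of 0 allows over the control group correspond to 0.538 CPM for Il1r2, which covers counting error only.

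Il1rap, the shared accessory chain, held 1.61, 3.80 and 4.28 CPM in controls and 8.85, 7.76 and 10.7 CPM at 4 h, without overlap. Its log2 difference at 4 h, 1.42 ± 0.44 with an adjusted p of 0.00361 (edgeR), lay short of the size cutoff. It was past the cutoff, and called higher, with unstranded counts (1.54), without control replicate 2 (1.55) or 3 (1.67) and without 4 h replicate 2 (1.55). Il1rl1, the IL-33 receptor, was the most uneven member among controls, with 1, 0 and 17 reads. Its changes ranged from -0.79 to 1.02 over the 4 times and none was called, with adjusted p-values of 0.417 to 0.896. Without control replicate 3, the library with 17 reads, Il1rl1 was called higher at 4 h (4.30, adjusted p = 0.00168) and at 24 h (3.70, adjusted p = 0.00889). The mast cell and basophil markers Ms4a2, Fcer1a and Mcpt4 were at 0 in every library, while Kit gave the 3 controls most of a summed marker level of 1.60 to 4.29 CPM; its part in the Il1rl1 counts was not tested.

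Counted over members, 4 of the 7 tested were called higher at 1 h (Il1a, Il1b, Il1rn and Il18bp), where 5.04% of all tested genes were, and none lower. At 4 h there were 5, with Il18 added (11.4% of all tested genes), at 12 h 5 (8.87%), and at 24 h 4 (7.93%). The median log2 fold change over the 7 members was 3.78 at 4 h, against -0.08 over all tested genes. These counts were the same with DESeq2. Scaling by plain library totals moved the median of all genes by -0.52 at 4 h and the share of calls that were higher from 49.8 to 29.2%, and left these member calls in place. Markers of neutrophils, which can also make IL-1, summed to 13.6 to 23.5 CPM in controls and 37.3 to 51.7 CPM at 4 h, mostly from S100a8, S100a9 and Ngp, with 8 of 9 in the files and Retnlg, Elane and Mpo at 0 in both groups; their part was not tested. Together the 9 members took 0.00491 ± 0.00115% of the reads in controls and 0.434, 1.22, 1.37 ± 0.0685 and 0.663% after 1, 4, 12 and 24 h of stimulation (SD, n = 3).

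The course over the labelled times differed by gene when each was set against its own highest group mean. Il18bp had 70.1% of its highest level at 1 h, Il1b 33.7%, Il1a 22.9%, Il18 15.3% and Il1rn 7.59%. By group means, Il1a, Il1b and Il18bp were highest at 4 h, and Il1rn and Il18 at 12 h. The libraries at 4 and 12 h overlapped for Il1b, Il18bp and Il18, so the order of these times is not resolved for them, and for Il1b it turned with plain library totals (0.12 for 12 against 4 h). From 1 to 4 h, 4 members were called higher (7.07% of all tested genes), namely Il1a by 2.10, Il1b by 1.54, Il1rn by 2.42 and Il18 by 2.45 on the log2 scale. The call of Il1b is at the cutoff of 1.5 and was lost without 1 h replicate 1 (1.48) and with plain library totals (1.20). Il1rap was called higher as well without 1 h replicate 2 (2.04, adjusted p = 0.000826) or 4 h replicate 2 (1.57, adjusted p = 0.00645). From 4 to 12 h no member was called by edgeR or DESeq2 (9.66% of all tested genes were called by edgeR), although 4 members had an unadjusted p under 0.05. Il1a was at 55.4% of its 4 h mean (-0.84 ± 0.10, adjusted p = 1.60e-08), Il1b at 92.9% (-0.10, adjusted p = 0.463) and Il1rn was 2.41-fold its 4 h mean (1.27 ± 0.14, adjusted p = 5.40e-07), all within the size cutoff.

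Between 12 and 24 h, Il1rn was the only member called, lower by a log2 change of -2.44 ± 0.14 (adjusted p = 4.01e-10, edgeR), in a comparison where 0.867% of all tested genes were called lower. Il1a (-0.71), Il1b (-0.82) and Il18 (-1.04) passed the adjusted p and not the size cutoff. At 24 h, Il1a remained at 32.8%, Il1b at 51.1%, Il1rn at 17.8%, Il18 at 47.4% and Il18bp at 60.9% of the highest mean. The 24 h, IL-4 and IL-13 libraries stood apart from the other BMDM libraries in the antisense share of Rn45s reads, 0.00603 to 0.0214% against 0.0386 to 0.122%, and its part in the comparisons of those groups was not tested.

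**Figure D2:**
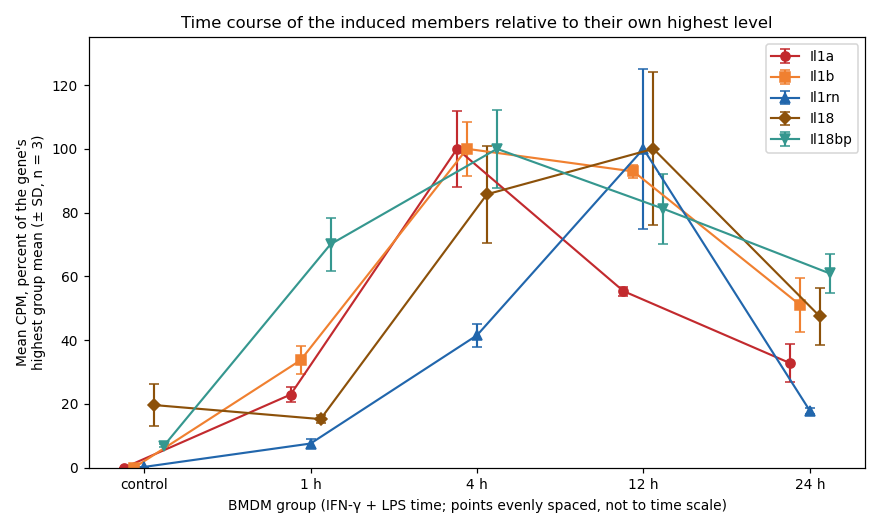
Mean CPM of the 5 induced members in BMDMs, as a percent of each gene's highest group mean, in controls and at 1, 4, 12 and 24 h of IFN-γ and LPS (points are evenly spaced, error bars are SD, n = 3). Il18bp stands at 70.1% at 1 h, Il1a and Il1b are highest at 4 h, and Il1rn is highest at 12 h and down to 17.8% at 24 h.

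The balance of antagonist to ligand was followed as the log2 ratio of Il1rn to Il1b reads within each library, with 0.5 added to each count. It was 2.40 ± 0.62 in controls (SD, n = 3) and -2.71, -1.82, -0.47 and -2.06 after 1, 4, 12 and 24 h. All stimulated libraries were thus below all controls, and within the time course the ratio was highest at 12 h. For Il18bp to Il18 the ratio was 1.09 ± 0.60 in controls and 4.68, 2.77, 2.27 and 2.92 at 1, 4, 12 and 24 h, each above the controls. In exact two-sided permutation tests, 3 against 3 libraries cannot go below p = 0.1, which each of these 8 comparisons gave (0.162 after Benjamini-Hochberg adjustment over 21 tests). With IL-4 and IL-13, where Il1b had at most 3 reads, Il1rn to Il1b was 4.50 and 4.49, above the controls (p = 0.1 in each exact permutation test), while Il18bp to Il18 overlapped the controls at 1.80 and 0.94 (p = 0.3 and 0.8). In RAW264.7 cells LPS took Il1rn to Il1b from 5.90 to -1.73, and Il18bp to Il18 was at -3.29 without and -2.61 with LPS, in a design of 2 against 2 whose smallest exact permutation p is 0.333. The remaining tests set Il1r2 against Il1r1, whose reads were too few to give a ratio. The ratios are of reads, not of molecules, since transcript lengths differ between the genes.

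**Figure D3:**
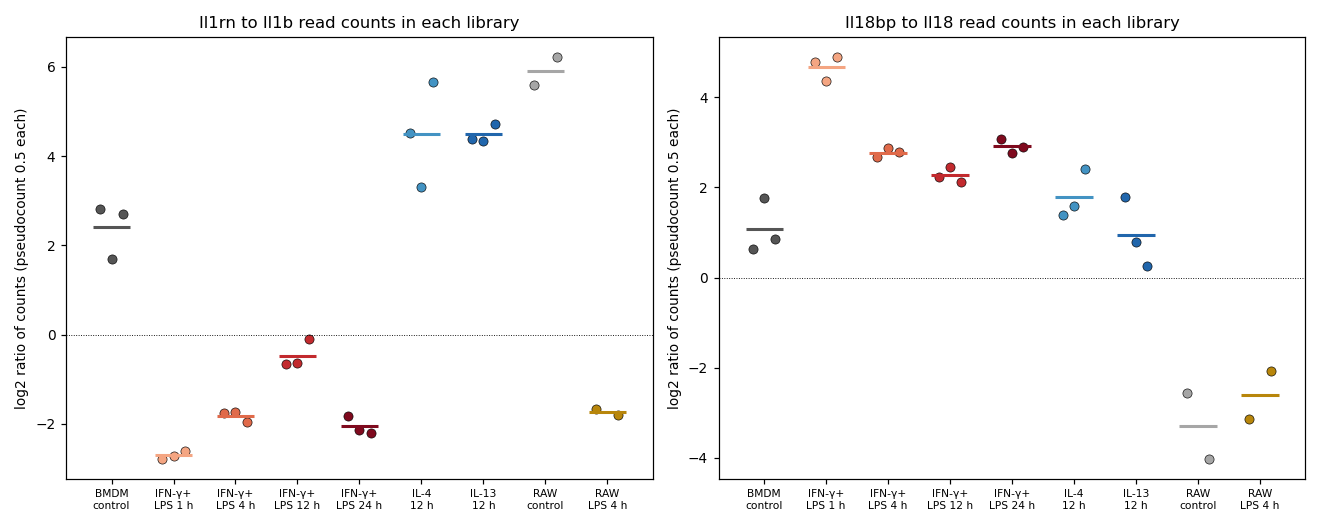
Log2 ratio of Il1rn to Il1b reads (left) and of Il18bp to Il18 reads (right) in each library, with 0.5 added to each count; points are libraries and bars group means (n = 3, RAW264.7 n = 2). Il1rn to Il1b falls below 0 in every library given LPS, and Il18bp to Il18 is above the controls at every time of IFN-γ and LPS.

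With IL-4 or IL-13, cytokines of alternative macrophage activation, none of the members was called. Il1rn held 17.8, 18.9 and 14.9 CPM with IL-4 and 17.8, 15.3 and 19.7 CPM with IL-13, overlapping the controls. Il18bp held 7.33, 7.23 and 10.7 CPM with IL-4 and 8.63, 8.19 and 6.07 CPM with IL-13, below each control. Its log2 differences were -0.61 ± 0.29 (adjusted p = 0.161, edgeR) and -0.76 ± 0.29 (adjusted p = 0.0603). Only 4 members passed the filter here (Il1rn, Il18bp, Il1rap and Il1rl1), and 0 of them were called with IL-4 (3.86% of all tested genes were) and 0 with IL-13 (5.36%), by edgeR and by DESeq2. At an unadjusted p under 0.05 there was 1 member with IL-4 (Il18bp) and there were 2 with IL-13 (Il18bp and Il1rap).

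Il1a, Il1b and Il18 were too low for the test with IL-4 or IL-13. Il1a stood at 5.24, 2.22 and 2.39 CPM with IL-4 and 2.88, 3.07 and 3.04 CPM with IL-13, against a highest control of 2.15 CPM. Il1b had 1, 3 and 0 reads with IL-4 and 1 in each library with IL-13, and its controls had 2, 8 and 4. Il18 had 5, 4 and 3 reads with IL-4 and 14, 7 and 13 in the controls, and without the filter its log2 difference with IL-4 was -1.43 with an adjusted p of 0.0458, above the 0.01 used for a call. Differences of this size were not resolved at this depth.

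Il1rl1 was higher with IL-13 in number, with 28, 21 and 11 reads, than with IL-4, with 13, 9 and 8 reads, and the 17 reads of control replicate 3 lay among them. The log2 difference from control was 1.68 ± 0.88 with IL-13 (adjusted p = 0.223, edgeR) and 0.76 ± 0.97 with IL-4 (adjusted p = 0.702). Without control replicate 3 it was called in both, at 4.97 (adjusted p = 9.35e-07) and 4.05 (adjusted p = 0.000957). With that library kept and without the filter on low counts, it was called with IL-13 (1.70, adjusted p = 0.0013). Between IL-13 and IL-4 no member was called by edgeR or DESeq2 and none had an unadjusted p under 0.05, in a comparison where 0.0649% of all tested genes were called.

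Set directly against each other at 12 h, the polarising stimuli differed in 5 members. Il1a, Il1b, Il1rn, Il18 and Il18bp were higher with IFN-γ and LPS than with IL-4 (8.58% of all tested genes were called higher) and than with IL-13 (8.59%). Against IL-4 the log2 differences were 10.11 for Il1a, 13.06 for Il1b, 8.20 for Il1rn, 3.77 ± 0.44 for Il18 and 4.14 for Il18bp, and against IL-13 they were 10.26, 13.51, 8.17, 2.92 ± 0.33 and 4.28. In no case did the groups overlap. Il1rap and Il1rl1 differed by -1.46 to 0.23 and were not called.

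In RAW264.7 cells, LPS alone for 4 h raised Il1a, Il1b and Il1rn. Il1a had 0 reads in both controls and 4436 and 4921 reads (1766 and 1706 CPM) with LPS, at least 3264-fold higher when the control is set at 3 reads over the group. Il1b went from 2 and 1 reads to 2310 and 2268 CPM, a log2 fold change of 11.99 ± 0.83. Il1rn was present before stimulation, at 41.6 and 40.2 CPM, and held 731 and 653 CPM with LPS, a log2 fold change of 4.12 ± 0.11. Of the 6 members tested, these 3 were called higher (2.39% of all tested genes were), with adjusted p-values too small for edgeR to store.

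The other members moved less in RAW264.7 cells. Il18 was at 13.2 and 14.5 CPM without and 19.1 and 18 CPM with LPS (0.46 ± 0.24, adjusted p = 0.111, edgeR). Il1rap went from 6 and 6 reads to 18 and 19 (1.71 ± 0.50, adjusted p = 0.000862), and Il1rl1 from 28 and 30 reads to 90 and 92 (1.75 ± 0.23, adjusted p = 1.07e-14), both short of the size cutoff of 2. Il1rl1 was at its highest level of all 9 groups in these LPS-treated cells, at 33.9 ± 2.79 CPM (SD, n = 2). Il18bp had 6 and 2 reads without and 5 and 12 with LPS and did not pass the filter (without it, log2 difference 1.17 with an adjusted p of 0.182), and Il1r1 had 0 reads in all 4 libraries.

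Before stimulation the cell line and the BMDMs already differed. Il18bp was lower in RAW264.7 controls, at 2.08 and 0.725 CPM, than in BMDM controls (log2 difference -3.11 ± 0.54, adjusted p = 7.23e-10, edgeR), and Il1a was lower with 0 reads against 9 (adjusted p = 0.00161). These were the 2 members called lower of 7 tested, where 13.3% of all tested genes were. The filter on low counts ran over all 25 libraries. With only the control groups compared, Il1a and Il1b did not pass it, and Il18bp was the 1 member called lower. The values of Il1a and Il1b here were thus tested only through libraries outside this comparison. Il1b, with 3 reads in the RAW264.7 controls and 14 in the BMDM controls, was past the size cutoff at -2.11 and missed the adjusted p (0.011), and it was called lower with Rn45s kept (adjusted p = 0.00976) and without BMDM control replicate 1 (0.00302). The Il1a call was lost without either RAW264.7 control (adjusted p = 0.0153 and 0.0133) and with unstranded counts (0.0117). Il1rn (1.64 ± 0.29) and Il18 (1.17 ± 0.31) had adjusted p-values of 5.49e-06 and 0.000391 and lay within the cutoff. Il1r1, not tested with the filter, was called lower without it (-5.19, adjusted p = 0.000384), and the stromal markers moved with it, at 72.2 to 109 CPM in BMDM controls and 0.725 to 1.39 CPM in RAW264.7 controls, where 5 of 6 were at 0. Their part in the Il1r1 difference was not tested.

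The change with LPS in RAW264.7 cells was compared with the change with IFN-γ and LPS in BMDMs at 4 h as a difference of log2 fold changes, with a size cutoff of 1. It was smaller in RAW264.7 cells for Il1rn by -3.25 ± 0.32 (adjusted p = 1.03e-09, edgeR), for Il18 by -1.68 ± 0.39 (adjusted p = 0.000228) and for Il18bp by -2.72 ± 0.65 (adjusted p = 0.0024). These are 3 of 7 members, where 11.1% of all tested genes were called in this direction. For Il1b the difference was 0.41 ± 0.93 (adjusted p = 0.715) and for Il1a 2.72 (adjusted p = 0.121, with no standard error because the RAW264.7 controls had 0 reads), on control counts too low to fix either fold. The Il18bp difference rested on few reads, and it was lost without RAW264.7 control replicate 1 (adjusted p = 0.341) or LPS replicate 1 (adjusted p = 0.0122).

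**Figure D4:**
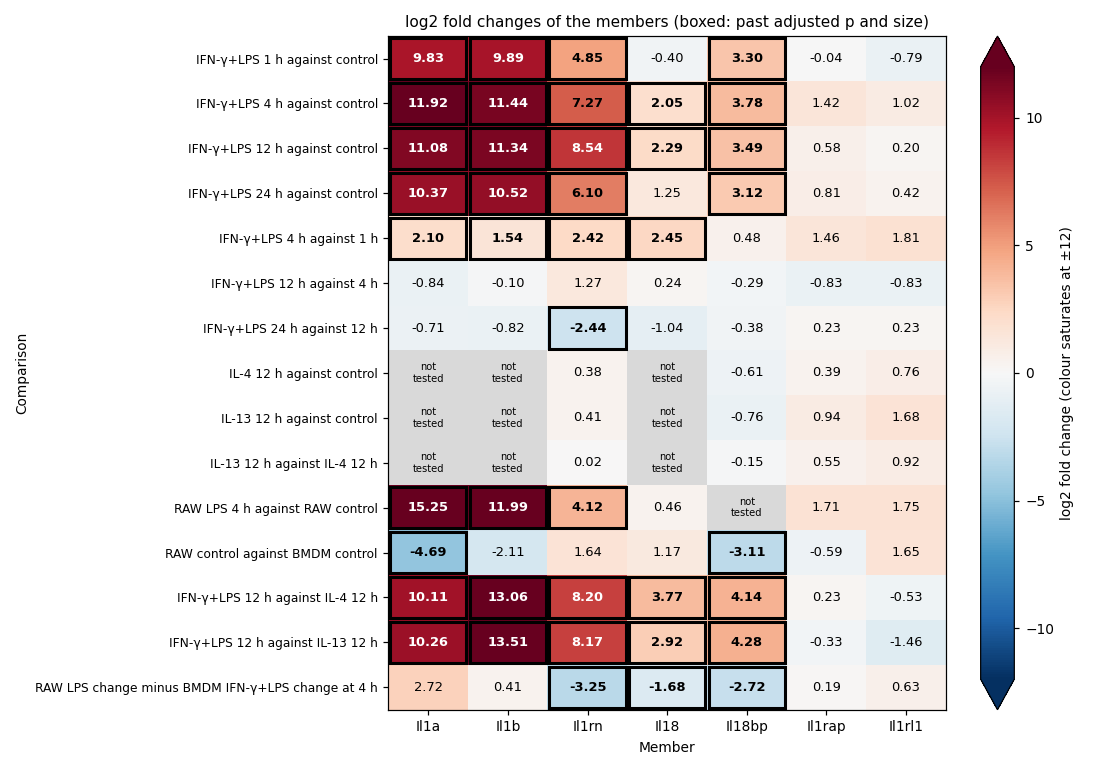
Log2 fold changes (edgeR) of the 7 members that passed the filter in at least 1 comparison, a line for each comparison, with colour saturating at 12 and boxes around values past both the adjusted p and the size cutoff. Il1a, Il1b and Il1rn are boxed in each comparison of LPS with a control. No member is boxed where IL-4 or IL-13 is set against the control or against each other. At 12 h of IFN-γ and LPS against IL-4 or IL-13, 5 members are boxed. The Il1a value in RAW264.7 cells starts from 0 reads and is not a measure of size.

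Among the 12 further genes of the IL-1 family, most had too few reads for a test, and none was tested in the IFN-γ and LPS time course. Il1rl2, the IL-36 receptor, was called higher with IL-4 (11.9 ± 1.34 against 3.23 ± 1.64 CPM, SD, n = 3; log2 fold change 1.85 ± 0.40, adjusted p = 0.00019, edgeR) and with IL-13 (1.76 ± 0.40, adjusted p = 0.000269). Il33, the ligand of Il1rl1, had 0 reads in the RAW264.7 controls and 143 reads over both LPS libraries, at 26.4 ± 1.34 CPM, while the 4 h BMDMs had 10. Il18rap, the accessory chain of the IL-18 receptor, was at 48.8 ± 5.26 CPM in RAW264.7 controls (n = 2) and 0.178 ± 0.309 CPM in BMDM controls (n = 3), and its partner Il18r1 had 1 read in all libraries together. Il18r1 and Il36g are named after their values were seen, and Il36g had 0 reads in BMDM controls, 27 at 12 h and 16 at 24 h.

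Genes that process the precursors were induced in part. Of 14 inflammasome and processing genes, all tested in BMDMs, 3, 6, 5 and 5 were called higher after 1, 4, 12 and 24 h, and 0, 2, 2 and 1 lower. Of all tested genes, 5.04, 11.4, 8.87 and 7.93% were called higher and 2.08, 11.4, 8.42 and 6.93% lower at these times. The sensor Nlrp3 went from 12.5 ± 1.96 to 538 ± 26.7 CPM at 4 h (log2 fold change 5.36 ± 0.18) and caspase-11 (Casp4) from 14.9 ± 1.78 to 339 ± 9.35 CPM (4.45 ± 0.17). Nlrp1b (-3.20 ± 0.36), another sensor, and P2rx7 (-2.47 ± 0.22), the ATP-gated channel that triggers Nlrp3, were called lower at 4 h. The pyrin gene Mefv was the most changed of the list at 12 h (5.48) and 24 h (5.12). With IL-4 and IL-13 the adaptor Pycard was called higher (0.75 and 0.78) and Nlrp3 lower (-1.61 and -1.63), with 1 gene in each direction. In either direction, 3.86% of all tested genes were called with IL-4 and 5.36% with IL-13. In RAW264.7 cells, Nlrp3 was the 1 gene of 11 tested that was called with LPS (3.23 ± 0.14), where 2.39% of all tested genes were called higher. Pycard and Mefv were at 0 in the RAW264.7 controls.

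Of 19 genes of IL-1 receptor signalling, which Toll-like receptors share, 18 were tested in BMDMs and most were not called. In time order 1, 5, 3 and 3 were called higher and 0, 1, 1 and 1 lower. Of all tested genes, 5.04, 11.4, 8.87 and 7.93% were called higher and 2.08, 11.4, 8.42 and 6.93% lower at these times. The single gene of 18 at 1 h is close to the share of all tested genes called higher there. The counts of lower genes are no larger a share than among all tested genes. The ubiquitin ligase Peli1 reached a log2 fold change of 4.57 ± 0.12 and the adaptor Myd88 3.0 ± 0.13 at 4 h, and the inhibitory kinase Irak3 3.34 ± 0.16 at 12 h and 3.63 ± 0.16 at 24 h. The gene called lower at 4, 12 and 24 h was Peli2, another Pellino ligase. It was also the 1 signalling gene called with IL-4 (-0.70 ± 0.18), and 0 were called with IL-13 (by edgeR). The shares of all tested genes called were 3.86% with IL-4 and 5.36% with IL-13.

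The 12 listed genes that IL-1 induces, which LPS also induces directly, were nearly all called higher with IFN-γ and LPS. There were 11 at 1 h and 12 at 4, 12 and 24 h, where 5.04, 11.4, 8.87 and 7.93% of all tested genes were. The chemokine Cxcl1 was at 616 ± 90.3 CPM at 1 h, Il6 at 685 ± 43.3 CPM at 4 h, and the acute phase gene Saa3 went from 1.97 ± 0.315 CPM in controls to 15298 ± 4782 CPM at 12 h (log2 fold change 12.82 ± 0.58). With IL-4 and with IL-13, 7 were tested, of which Ccl2 and Zc3h12a were called higher and Nfkbiz lower. Among all tested genes, 3.86% were called with IL-4 and 5.36% with IL-13, in either direction. In RAW264.7 cells 10 of 10 tested were called higher with LPS (2.39% of all tested genes were). The study's design holds no arm with an IL-1 receptor block, so induction through IL-1 and through LPS cannot be told apart.

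**Figure D5:**
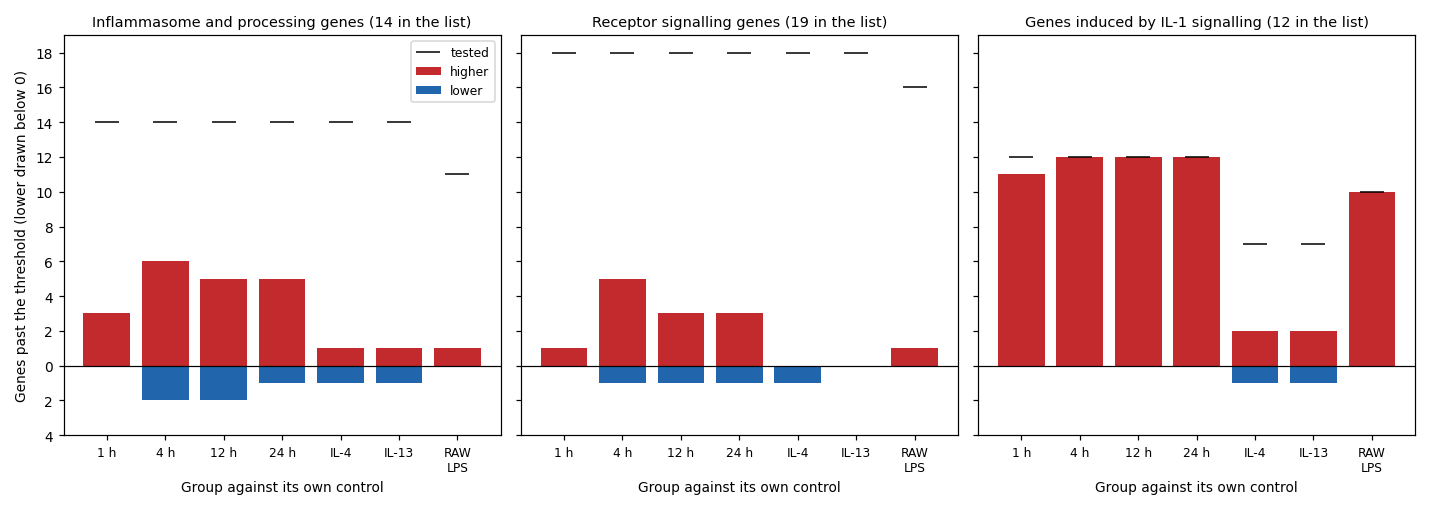
Number of genes called higher (above 0) and lower (below 0) against the own control in 3 lists, with a tick at the number tested: 14 inflammasome and processing genes, 19 receptor signalling genes and 12 genes induced by IL-1 signalling. At 4 h of IFN-γ and LPS, 6, 5 and 12 genes were called higher and 2, 1 and 0 lower. Among all tested genes, 11.4% were called higher and 11.4% lower at this time.

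The genes whose level followed each member most closely were found by Pearson correlation of log2 CPM (prior count 2) across the 21 BMDM libraries, over 10027 genes with a group mean of at least 5 CPM. The libraries share their treatments and depth, and genes measured in the same libraries are not independent. Il1a was most like Cd74 (r = 0.995), Irg1 (0.994) and Hcar2 (0.993), and Il1b most like Cxcl9 (0.997), Irg1 (0.996) and Ehd1 (0.992). Il1a and Il1b correlated with each other at 0.989. Il1rn was most like Tmbim6 (0.993), Gbp7 (0.991) and Sppl2a (0.989), and Il18bp most like Cxcl9 (0.993), Irg1 (0.992) and Cxcl16 (0.991). Il18 was most like Kalrn (0.967) and Sipa1l1 (0.966), while Il1rap reached only 0.809 (Adprm) and Il1rl1 0.740 (Ndufb4).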

How the data were processed

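Per the labels and the study's methods, ribosomal RNA was removed, strand-specific libraries were made with random primers and sequenced on a HiSeq2000 (the labels call the molecule polyA RNA), base calls came from CASAVA 1.8.2, and the authors trimmed reads with Trimmomatic 0.33, aligned them to mm10 with STAR 2.5.1 and deposited raw read counts per gene symbol. The annotation release they used is not given in the sources used here. The deposited counts for the sense strand were used. Reads with no feature on that strand, 62.7 to 69.1% of the gene, no-feature and ambiguous reads, were left out. Ambiguous reads and Rn45s were left out too, which left 1502618 to 2532496 counts per library. BMDM libraries are described as biological triplicates from independent RNA samples, and no source used here says whether the 2 RAW264.7 libraries of a group came from separate cultures. The edgeR p-values refer to the spread between these libraries, which is estimated for each gene in part from all tested genes. In RAW264.7 cells, with 2 libraries a group, they do not measure a spread between separate cultures. No 2 replicates were duplicates (chi-square per degree of freedom 1.30 to 4.53 over 23 pairs).

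Fits used edgeR 4.0.16 in R 4.3.3 (filterByExpr by group, TMM, robust quasi-likelihood), on 15 time course libraries, 9 IL-4 and IL-13 libraries with controls, 4 RAW264.7 libraries, or all 25, with Benjamini-Hochberg adjustment over all genes tested. Standard errors of log2 fold changes are Wald errors from the fitted means, dispersions and quasi-likelihood variances, never below counting error, and are not given where a group has no read. The DESeq2 1.42.0 package, RLE factors, unstranded counts, no filter, Rn45s kept, a replicate block, only the groups compared and each library left out were tried. Plain library totals were added after seeing the data. Count ratios were compared by exact permutation tests in SciPy 1.17.1, and the other tables were made with pandas 2.3.3 and matplotlib 3.10.9 in Python 3.11.15. Scripts were tested on simulated data. CPM per kb used the union of GENCODE M21 exons; promoters are from RefSeq, in which all 9 members have at least 1 (13 in all).

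Named genes are the 9 members, from each list up to 4 called genes in the comparison described (the 2 that changed most in each direction), and the 3 genes most like each member, of which 1 is not reported here. The members and lists were chosen with earlier results of these data known. LPS-only BMDM libraries were not analysed here.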

Additional observations from a re-analysis of the deposited data

Results flagged for a closer look

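The 3 members Il1rn, Il18 and Il18bp changed less with LPS in RAW264.7 cells than with IFN-γ and LPS in BMDMs at 4 h, in a direct test of the difference between both changes across all 25 libraries. The differences of log2 fold changes were -3.25 for Il1rn, -1.68 for Il18 and -2.72 for Il18bp, with a size cutoff of 1 chosen here. The Il18bp call was lost without RAW264.7 control replicate 1 (-1.81, adjusted p = 0.341) or LPS replicate 1 (-2.33, adjusted p = 0.0122). The cell source, the mouse strain, IFN-γ and the set of libraries differ together between the arms and cannot be told apart. No group had more than 3 libraries, so no library was tested as an outlier within its group.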

How the results depend on the processing

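The 4 to 5 members called higher against controls at 1, 4, 12 and 24 h were called under every alternative run, with members added in some. With a library left out the counts were 5 to 7 at 4 h (Il1rap and Il1rl1 added) and 4 to 5 at 24 h (Il1rl1 added), and unstranded counts added Il1rap at 4 h. At 4 against 1 h, 3 to 5 members were called higher with a library left out (Il1b lost, Il1rap added). Outside the left-out libraries, and among members tested in both fits, 722 member fold changes kept direction and side of the threshold, 3 became called and 2 lost a call. The direction turned for 5 small and uncalled values. These were Il1rap at 1 h (0.22) and in the RAW264.7 minus BMDM difference (-0.065) with unstranded counts, and Il1rl1 at 12 h (-0.10), Il1b at 12 against 4 h (0.12) and Il1rap at 12 h against IL-4 (-0.11) with plain library totals. Without the filter, 1 member (Il1rl1, 1.70, adjusted p = 0.0013, edgeR) was called higher with IL-13. With unstranded counts, 1 member (Il18bp) and not 2 was called lower in RAW264.7 against BMDM controls. With only the groups compared it was also Il18bp alone, where Il1a and Il1b did not pass the filter and were not tested. With Rn45s kept, or without BMDM control replicate 1, 3 members were called lower there (Il1b added). All genes called between IL-13 and IL-4 numbered 6 with edgeR and 3 with DESeq2. With a library left out, counts ran from 0 to 1 member called higher with IL-4, with IL-13 and in RAW264.7 against BMDM controls, each time Il1rl1 without control replicate 3, and from 2 to 9 genes called between IL-13 and IL-4. Directions then turned, over ranges of log2 fold changes, for Il1rap at 1 h (-0.61 to 0.25), with IL-4 (-0.0040 to 0.74), at 12 h against IL-4 (-0.12 to 0.63) and in the RAW264.7 minus BMDM difference (-0.062 to 0.51). They turned for Il1rl1 at 1 h (-1.78 to 2.48), 12 h (-0.36 to 3.48), 24 h (-0.65 to 3.70), 24 against 12 h (-0.85 to 0.66) and in that difference (-2.66 to 1.28), for Il1b in that difference (-0.21 to 0.89), and between IL-13 and IL-4 for Il1rn (-0.069 to 0.11) and Il18bp (-0.24 to 0.051). Plain library totals moved the median of all genes by -0.19, -0.31 and -0.22 at 1, 12 and 24 h, by 0.25 in RAW264.7 against BMDM controls and by 0.44 in the RAW264.7 minus BMDM difference. The share of calls that were higher went, for 1, 12 and 24 h against control, from 70.8, 51.3 and 53.4% to 59.6, 37.8 and 43.3%. Between successive times it went from 50.4, 53.9 and 32.5% to 31.4, 68.2 and 43.3%, for 12 h against IL-4 and IL-13 from 53.5 and 53.6% to 37.6 and 36.4%, and in the RAW264.7 minus BMDM difference from 41.7 to 70.5%. By mean correlation, pairing by replicate number was weak at most in BMDMs (0.0144 for equal and -0.00724 for unequal numbers). The highest correlation was 0.153 for equal and 0.0823 for unequal numbers, and these means do not show that pairing is absent. A replicate block left the same number of members called in each comparison, with 2186 genes called at 4 h in place of 2180. The cause of these changes was not tested. Depth limits the receptors and the IL-4 and IL-13 comparisons, where most members had under 20 reads per library.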
